A study of Aquarana catesbeiana with 18 samples.

Results

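The genes described are those that the authors' pathway annotation places under protein processing in the endoplasmic reticulum (ER), in American bullfrogs (Aquarana catesbeiana). The entry stands on 181 of the 24636 genes of the count table. Of these, CRYAA, CRYAB and NFE2L2 were set aside by name and 3 more, CUL1, RBX1 and SKP1, because they also carry the cell cycle entry, which leaves 175 genes. HSPB6 was kept, although the annotation gives its ortholog as CRYAB. Total RNA of 3 whole tissues, back skin, liver and eyes, was sequenced from wild-type and albino frogs, with 3 libraries in each of the 6 groups. The labels give no age, sex or treatment, and they name neither the gene behind the albinism nor the number of animals in a library. They do not say that replicates are separate animals either, so p-values measure the spread between these libraries. The series is about melanin genes and oxidative stress, and the ER genes are described here as 1 pathway across its groups.

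Proteins that are to be secreted or put into membranes enter the ER through the Sec61 translocon, receive a glycan from the oligosaccharyltransferase, and fold with the help of lumenal Hsp70 and Hsp90 proteins, the lectins calnexin and calreticulin, and protein disulfide isomerases. Folded cargo leaves in vesicles with a COPII coat. Misfolded protein is recognised, drawn back into the cytosol, tagged with ubiquitin and degraded, a route called ER-associated degradation (ERAD). Unfolded protein in the lumen activates the sensors IRE1 (genes ERN1 and ERN2), PERK (EIF2AK3) and ATF6, whose outputs include the transcription factors XBP1, ATF4 and DDIT3. Liver exports most plasma proteins, skin of frogs is rich in secretory glands, and photoreceptors send large amounts of opsin through the ER.

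Each library held 34.3 to 39.2 M counts, and the 175 genes together took 0.814 to 1.76% of them. In liver, the library labelled wild-type 3 did not carry the pattern of its number. Over 34 genes that were switched on (at least 30 counts) or off (at most 2) in every library and varied between libraries of each tissue, all other libraries of 1 genotype and number had the same state in all of them across tissues. Different numbers of 1 genotype differed in such states: skin wild-type 1 and 2 agreed in 65.6% of 90 genes of that kind in skin. Liver wild-type 3 matched skin and eyes wild-type 3 in 55.9% of the 34 and skin and eyes wild-type 2 in 100%. None of the ER genes is among the 34. For genotype in liver and tissues against wild-type liver, counts of calls are given also with liver wild-type 2 and 3 summed as 1 library. Role medians and gene values between tissues are given unsummed. In eyes, 67 crystallin genes took 21.2, 34.8 and 24.3% of the counts of wild-type 1, 2 and 3, against 0.267, 0.282 and 7.46% in albino 1, 2 and 3. The 7 lens markers found (of 8 listed, crystallins among them) summed to between 38477 and 59860 CPM (counts per 1e6 counts of the library) in wild-type eyes and between 4.14 and 14584 CPM in albino eyes. The 5 photoreceptor markers found (of 6) summed to between 21007 and 33116 CPM in wild-type and between 40018 and 56918 CPM in albino eyes. Lens content and genotype therefore cannot be told apart in eyes, and in these bulk samples fewer cells of a type and less RNA per cell cannot be told apart either. Each tissue carried its own markers: hepatocyte genes summed to at least 30686 CPM in liver and at most 4.68 CPM elsewhere, and epidermal genes to at least 1559 CPM in skin and at most 90.6 CPM elsewhere.

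On the FPKM scale, which is per kilobase of gene length and so allows genes to be set side by side, 141 of the 175 genes reached a mean of 1 in skin, 130 in liver and 148 in eyes. The median gene of the pathway stood at 9.95 FPKM in skin, 5.59 in liver and 11.6 in eyes, against 0.742, 0.277 and 1.08 FPKM for all genes. FPKM carry no composition factor and do not rank the tissues. With edgeR's composition factor (TMM) the median ER gene in wild-type was lower than in liver, by -0.35 in skin and -0.50 in eyes (log2). The medians of all genes were 0.075 and 0.197. With library totals in place of TMM the ER medians were 0.56 and 0.55, and those of all genes 0.997 and 1.22. The sign of the ER medians therefore depends on the scaling. The cytosolic chaperones HSPA8, the constitutive Hsp70, and HSP90AB1, the constitutive Hsp90, were the highest of the pathway in skin (means over 6 libraries of 1152 and 968 FPKM) and in eyes (730 and 610 FPKM, the second with a range of 423 to 707). In liver HSP90AB1 led with 590 FPKM (range 492 to 690). There it was followed by 3 folding proteins of the lumen whose ranges overlap each other: P4HB, the first protein disulfide isomerase, at 334 FPKM, PDIA3 at 314 and the lectin chaperone calreticulin (CALR) at 312. Of these, P4HB stood at 169 to 475 FPKM in single libraries and CALR at 145 to 541, so the order among them is not separated by their spread. KRTCAP2, a small subunit of the oligosaccharyltransferase, was among the 8 highest in each tissue, with 346 FPKM in skin, 247 in liver and 156 in eyes. In skin the signal sequence receptor SSR3 (247 FPKM) and ATF4 (251 FPKM) stood beside it, in liver SSR4 (207 FPKM) and the catalytic oligosaccharyltransferase subunit STT3A (206 FPKM), and in eyes VCP, the ATPase that pulls ERAD substrates from the membrane (170 FPKM). At the low end, 2 of the genes had no count in any skin library and 4 in any liver library, while each had a count in eyes.

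By role, the translocon (13 genes) and the oligosaccharyltransferase (10 genes) had the highest medians in skin. Their medians per library lay between 60.6 and 76.3 FPKM and between 62.8 and 78.0 FPKM in skin, and between 23.3 and 36.5 FPKM and between 25.2 and 51.1 FPKM in eyes. In liver the disulfide formation list (7 genes) ranged from 33.9 to 91.7 FPKM over the libraries. The cytosolic chaperones (17 genes) had medians of 2.03 to 2.70 FPKM in liver, 4.56 to 9.12 in skin and 16.6 to 38.5 in eyes, without overlap between tissues. Scaled by TMM, wild-type skin against liver gave a median log2 difference of -0.21 for these chaperones. For the translocon it gave -1.14, with 8 of 13 genes called lower in skin. The 17 Hsp70 genes known by locus number were near 0 in median in all 3 tissues.

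**Figure D1:**
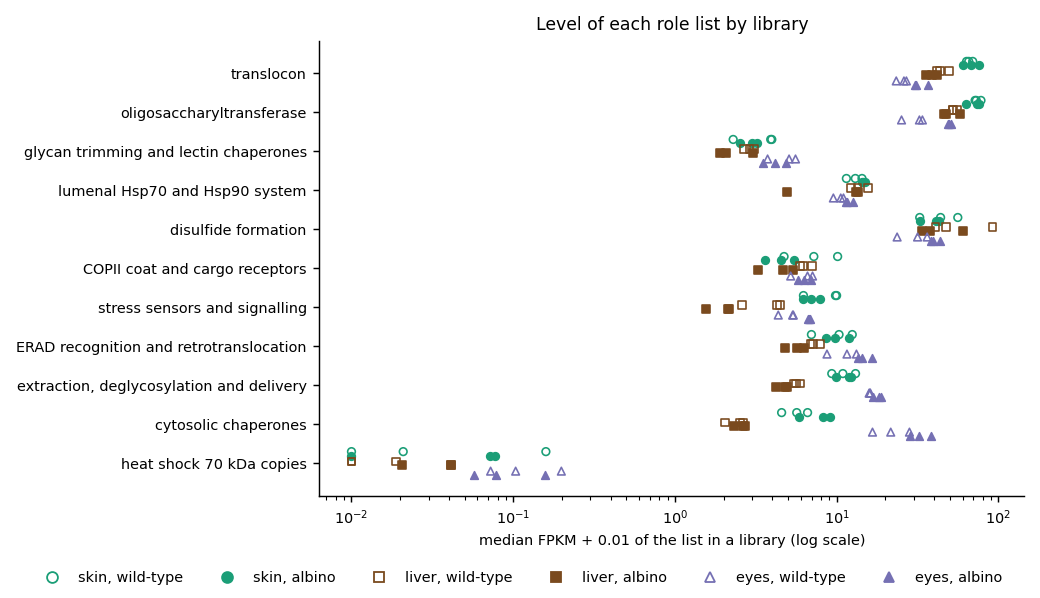
Median FPKM (plus 0.01, log scale) of the genes of each role list, 1 symbol per library, open for wild-type and filled for albino. Translocon and oligosaccharyltransferase lists sit at the right in skin, cytosolic chaperones separate liver (2.03 to 2.70 FPKM) from eyes (16.6 to 38.5 FPKM), and the Hsp70 copies lie near 0.

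In skin, no gene of the pathway differed between albino and wild-type past the threshold. A gene is called here when its adjusted p is under 0.05 in edgeR's quasi-likelihood test with Benjamini-Hochberg adjustment over all genes tested. Of the 153 ER genes tested, 0 were called, where 0.0946% of all 16921 genes tested were. An unadjusted p under 0.05 was found for 13 of the 153, and for 2199 of the 16921. DESeq2 called 2 of 173 ER genes, and 750 of all genes. A fit of all 18 libraries called 5 of 169, and 680 of all genes. The median log2 difference of albino minus wild-type was -0.01 over the 153 genes and 0.01 over all genes. The genotypes did not overlap in 28 of the 153, or 18.3%, against 19.8% of all genes tested.

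The smallest p-value in skin belonged to LOC141117345, annotated as an HSP90-alpha, a cytosolic chaperone of the inducible type. In wild-type skin it stood at 6.75, 6.83 and 9.30 CPM, and in albino skin at 19.00, 30.3 and 27.4 CPM. In all comparisons, CPM of single genes are scaled by TMM, edgeR's composition factor. All albino libraries lay above all wild-type ones, with a log2 difference of 1.75 (SE 0.26, adjusted p = 0.0769), and the call was made by DESeq2 (adjusted p = 8.82e-06) and by the fit of all 18 libraries (0.00292). LOC141107378, a calpain-like gene (calpains are cytosolic proteases that the pathway links to cell death), went the other way. The wild-type skin libraries held 14.1, 20.8 and 40.6 CPM of LOC141107378, and the albino ones 1.96, 4.43 and 3.90 CPM. The groups did not overlap and wild-type 3 stood highest, with a log2 difference of -2.87 (SE 0.48, adjusted p = 0.0986). DESeq2 called it too (adjusted p = 8.42e-07). The next genes were RRBP1, which anchors ribosomes to the ER membrane, at a log2 difference of 1.02 (SE 0.30, adjusted p = 0.236), SEC31A of the outer COPII coat at a log2 difference of -0.72 (SE 0.24, adjusted p = 0.282), and DNAJB11, a J-domain partner of the lumenal Hsp70, at a log2 difference of -0.65 (SE 0.24, adjusted p = 0.326). None of the 3 overlapped between genotypes. The library skin albino 2 had skeletal muscle markers (12 found of 16) at a sum of 260 CPM against 2.42 to 25.3 CPM in the other skin libraries, and skin wild-type 1 had macrophage and granulocyte markers (7 of 11) at 527 CPM against 78.1 to 144. Plasma cell markers (5 of 6) summed to 124 to 151 CPM in wild-type and 19.7 to 96.8 CPM in albino skin, and lymphocyte markers (10 of 13) to 29.2 to 74.6 and 10.9 to 28.5 CPM, both without overlap. The part of these cells in the skin values was not tested.

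The core of the unfolded protein response overlapped between genotypes in skin. HSPA5, the lumenal Hsp70 also known as BiP, had 137, 131 and 126 CPM in wild-type and 114, 86.01 and 178 CPM in albino (log2 difference -0.06, SE 0.29, adjusted p = 0.953), and the groups overlapped. XBP1 had 253, 156 and 186 CPM in wild-type and 157, 167 and 132 CPM in albino (log2 difference -0.38, SE 0.26, adjusted p = 0.573), where wild-type 1 stood above the others. None of HSPA5, HSP90B1, XBP1, ATF6, ERN1, EIF2AK3, ATF4, DDIT3 and HERPUD1 was called, and their log2 differences ran from -0.48 (DDIT3) to 0.55 (EIF2AK3).

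In liver, the COPII genes SEC31A, SAR1B, SEC24A and SEC24D, the stress genes XBP1 and ERN2 and the ubiquitin-conjugating enzyme UBE2D1 were lower in albino frogs, and LOC141117345, CKAP4 and EDEM2 were higher. Of 147 ER genes tested, 10 were called, 3 higher and 7 lower, or 6.80%. Of all 14990 genes tested, 5.76% were called, 429 higher and 435 lower. With wild-type 2 and 3 summed as 1 library, 1 of 149 ER genes was called, and 147 of all genes. The medians were -0.03 and 0.00, and the genotypes did not overlap in 48 of the 147 (32.7%), against 28.7% of all genes tested. Of the 7 that fell, 4 belong to the 14 tested genes of the COPII coat and its cargo receptors, 2 to the stress sensors and 1 to the extraction and delivery list.

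SEC31A, which forms the outer cage of the COPII coat, fell most firmly. SEC31A had 20.7, 26.8 and 20.2 CPM in wild-type liver and 6.72, 5.93 and 7.07 CPM in albino liver, in the order of the replicates. The highest albino library lay below the lowest wild-type one by more than the range within either group, with a log2 difference of -1.78 (SE 0.18, adjusted p = 0.0018), a 3.43-fold difference. It was called under each of the 15 alternatives run for it, with a highest adjusted p of 0.016, and with wild-type 2 and 3 summed it was the only member still called (adjusted p = 0.0114). SAR1B is the GTPase that starts coat assembly and, in humans, is needed to export large lipoproteins. In wild-type liver it stood at 37.4, 60.1 and 59.4 CPM, and in albino liver at 25.2, 20.8 and 20.2 CPM. Wild-type 1 was nearer to the albino libraries than wild-type 2 and 3, and the groups did not overlap, with a log2 difference of -1.25 (SE 0.22, adjusted p = 0.019). The cargo adaptors SEC24A, with 28.3, 36.6 and 29.96 CPM in wild-type and 19.9, 14.7 and 16.6 CPM in albino (log2 difference -0.89, SE 0.18, adjusted p = 0.0294), and SEC24D, with 41.2, 64.6 and 50.01 CPM in wild-type and 23.4, 31.8 and 23.97 CPM in albino (log2 difference -0.98, SE 0.22, adjusted p = 0.0375), fell without overlap as well. Of the other COPII genes tested, 10 were not called, among them SEC13, the partner of SEC31A in the cage, with 38.5, 31.7 and 29.7 CPM in wild-type and 20.02, 25.1 and 32.01 CPM in albino (log2 difference -0.37, SE 0.21, adjusted p = 0.33) and overlapping groups. The median over the 14 was -0.36.

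XBP1, the transcription factor made active by IRE1 splicing, fell too. The wild-type liver libraries held 302, 499 and 439 CPM of XBP1, and the albino ones 213, 144 and 159 CPM. Wild-type 2 and 3 were the highest, and all wild-type libraries lay above all albino ones, with a log2 difference of -1.27 (SE 0.26, adjusted p = 0.0277). ERN2 encodes IRE1-beta, a form known in mammals from mucous epithelia. ERN2 had 2.87, 8.61 and 8.92 CPM in wild-type liver and 1.79, 1.56 and 1.20 CPM in albino liver, in the order of the replicates. Here wild-type 2 and 3 stood at about the same level and wild-type 1 nearer to the albino libraries, with a log2 difference of -2.16 (SE 0.43, adjusted p = 0.0289). Its relative ERN1 did not pass, with 19.6, 18.1 and 18.5 CPM in wild-type and 15.8, 18.6 and 12.5 CPM in albino (log2 difference -0.26, SE 0.18, adjusted p = 0.437) and overlapping groups. UBE2D1, a ubiquitin-conjugating enzyme that works with several ligases, fell with 20.2, 21.5 and 20.3 CPM in wild-type and 11.8, 11.2 and 10.4 CPM in albino (log2 difference -0.89, SE 0.15, adjusted p = 0.0152), and its groups were each tight and apart.

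DDIT3, HERPUD1 and EIF2AK3 showed the same 2 wild-type libraries on top without being called. DDIT3, a factor known for its part in cell death after long stress, had 6.75, 16.1 and 23.96 CPM in wild-type and 6.61, 2.35 and 2.46 CPM in albino (log2 difference -2.03, SE 0.60, adjusted p = 0.113). HERPUD1, an ERAD scaffold protein induced by stress, had 87.9, 169 and 146 CPM in wild-type and 65.4, 79.5 and 87.7 CPM in albino (log2 difference -0.79, SE 0.26, adjusted p = 0.12). EIF2AK3, the PERK kinase, had 12.5, 42.1 and 43.1 CPM in wild-type and 13.4, 13.2 and 20.8 CPM in albino (log2 difference -1.04, SE 0.47, adjusted p = 0.247), with wild-type 1 at the level of the albino libraries. The fit without wild-type 1 left only wild-type 2 and 3 as wild-type, and these share nearly all on and off states. DDIT3, HERPUD1 and EIF2AK3 were all called in that fit, and the count of members called was 17. It was 1 without wild-type 2, 2 without wild-type 3 and 2 without either of albino 2 and 3. Calls over all genes moved likewise, from 864 with all libraries to 1381 without wild-type 1. They were 134 and 183 without wild-type 2 and 3, and 257 and 306 without albino 2 and 3. The library labelled wild-type 3 carries the on and off states of number 2. Among 68 genes of that kind in liver, wild-type 2 and 3 had the same state in 98.5%. For wild-type 1 the share was 51.5% with wild-type 2 and 50% with wild-type 3. Beyond these states, whether the 2 high libraries come from separate animals was not tested. All liver p-values and SDs from fits without summing count them as 2 libraries. ATF4, which lies beside a similar gene and may share reads with it, and ATF6 overlapped between genotypes, at a log2 difference of 0.14 (SE 0.18, adjusted p = 0.687) and a log2 difference of -0.04 (SE 0.28, adjusted p = 0.95).

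Among the chaperones of the lumen the libraries disagreed within a genotype, as the values of HSPA5 show. In wild-type liver it stood at 65.9, 64.2 and 43.7 CPM, and in albino liver at 95.1, 16.8 and 123 CPM. The albino libraries of HSPA5 enclosed the wild-type ones, and albino 2 was lowest of all, with a log2 difference of 0.43 (SE 0.67, adjusted p = 0.759). HSP90B1, the lumenal Hsp90, had 601, 349.5 and 283 CPM in wild-type and 428, 235 and 269.8 CPM in albino (log2 difference -0.40, SE 0.34, adjusted p = 0.526), with wild-type 1 highest. P4HB was about level among albino libraries and higher than in each wild-type library, with 761, 428 and 345 CPM in wild-type and 1137, 1068 and 1099 CPM in albino (log2 difference 1.11, SE 0.30, adjusted p = 0.0677), and did not pass. None of the 8 genes of the lumenal Hsp70 and Hsp90 list or the 7 of disulfide formation was called in liver.

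The 3 genes that rose in albino liver come from 3 lists. LOC141117345, the HSP90-alpha gene of the skin result, rose from low levels. A second gene annotated as HSP90-alpha, HSP90AA1, was tested between genotypes only in eyes. It overlapped there and was not called (log2 difference -0.08). How reads that match both genes were counted is not stated in the labels. The wild-type liver libraries held 1.53, 2.18 and 2.56 CPM of LOC141117345, and the albino ones 5.29, 7.04 and 9.88 CPM. The groups did not overlap, with a log2 difference of 1.82 (SE 0.30, adjusted p = 0.0144). CKAP4, which spaces the sheets of the rough ER, had 16.3, 18.6 and 20.1 CPM in wild-type and 37.1, 30.5 and 37.7 CPM in albino (log2 difference 0.94, SE 0.17, adjusted p = 0.019), and EDEM2, the mannosidase that trims glycans of ERAD substrates, 8.07, 9.00 and 8.21 CPM in wild-type and 13.6, 15.4 and 15.1 CPM in albino (log2 difference 0.80, SE 0.16, adjusted p = 0.0238); in both the 2 groups were apart. Apart from SEC31A, no call in liver held without each library in turn. The calls of SAR1B, SEC24A, XBP1, ERN2, UBE2D1 and EDEM2 ended without any 1 of wild-type 2 and 3 and albino 2 and 3, that of SEC24D without any library but wild-type 1, that of CKAP4 without wild-type 2 or 3 or albino 3, and that of LOC141117345 without wild-type 2 or albino 2, with adjusted p up to 0.157.

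Further genes of small p within their role list were not called in liver. UGGT2, a glucosyltransferase that marks unfolded glycoproteins, had a log2 difference of 1.59 (SE 0.41, adjusted p = 0.0592) without overlap. UBE2J1, an ERAD ubiquitin-conjugating enzyme, had a log2 difference of -0.85 (SE 0.21, adjusted p = 0.0523), the pore-forming cell death protein BAX a log2 difference of -1.30 (SE 0.40, adjusted p = 0.0951), DNAJC1 a log2 difference of 0.47 (SE 0.16, adjusted p = 0.122), STT3B, the post-translational oligosaccharyltransferase a log2 difference of 0.68 (SE 0.23, adjusted p = 0.128), SVIP, a VCP inhibitor a log2 difference of 0.60 (SE 0.21, adjusted p = 0.134), and the mannosidase MAN1B1 a log2 difference of -0.50 (SE 0.18, adjusted p = 0.146). Smaller differences were those of UBE2D4 (log2 difference -0.48, SE 0.18, adjusted p = 0.154), the translocon-associated SSR2 (log2 difference -0.44, SE 0.18, adjusted p = 0.199), the small oligosaccharyltransferase subunit TMEM258 (log2 difference -0.37, SE 0.15, adjusted p = 0.199) and the vesicle chaperone DNAJC5G (log2 difference -0.36, SE 0.15, adjusted p = 0.202). HSPBP1, an Hsp70 nucleotide exchange factor, and TXNDC5, a disulfide isomerase, overlapped between genotypes, with a log2 difference of 0.50 (SE 0.30, adjusted p = 0.367) and a log2 difference of -0.06 (SE 0.18, adjusted p = 0.89). Scaled by library totals instead of TMM, the median of all genes in liver moved by -0.28. With that scaling 13 members were called, 1 higher and 12 lower, and 1182 of all genes. CKAP4 and EDEM2 then lost their call. Macrophage and granulocyte markers (7 of 11) summed to 682 to 1187 CPM in wild-type liver and 235 to 469 CPM in albino liver, erythrocyte markers (5 of 7) to 62.3 to 92.8 and 107 to 222 CPM, hepatocyte markers (7 of 11) to 30686 to 38827 and 47154 to 54375 CPM, and lymphocyte markers (10 of 13) to 145 to 248 and 58.2 to 125 CPM. Plasma cell markers (5 of 6), which belong to secretory cells with high XBP1, overlapped at 43.9 to 67.3 and 35.3 to 67.9 CPM. Skeletal muscle markers (12 of 16) summed to 25.4 to 33.99 CPM in wild-type and 5.73 to 11.4 CPM in albino liver, and 2 of the 3 tested were called lower and 1 higher. The part of these cells in the liver differences was not tested.

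**Figure D2:**
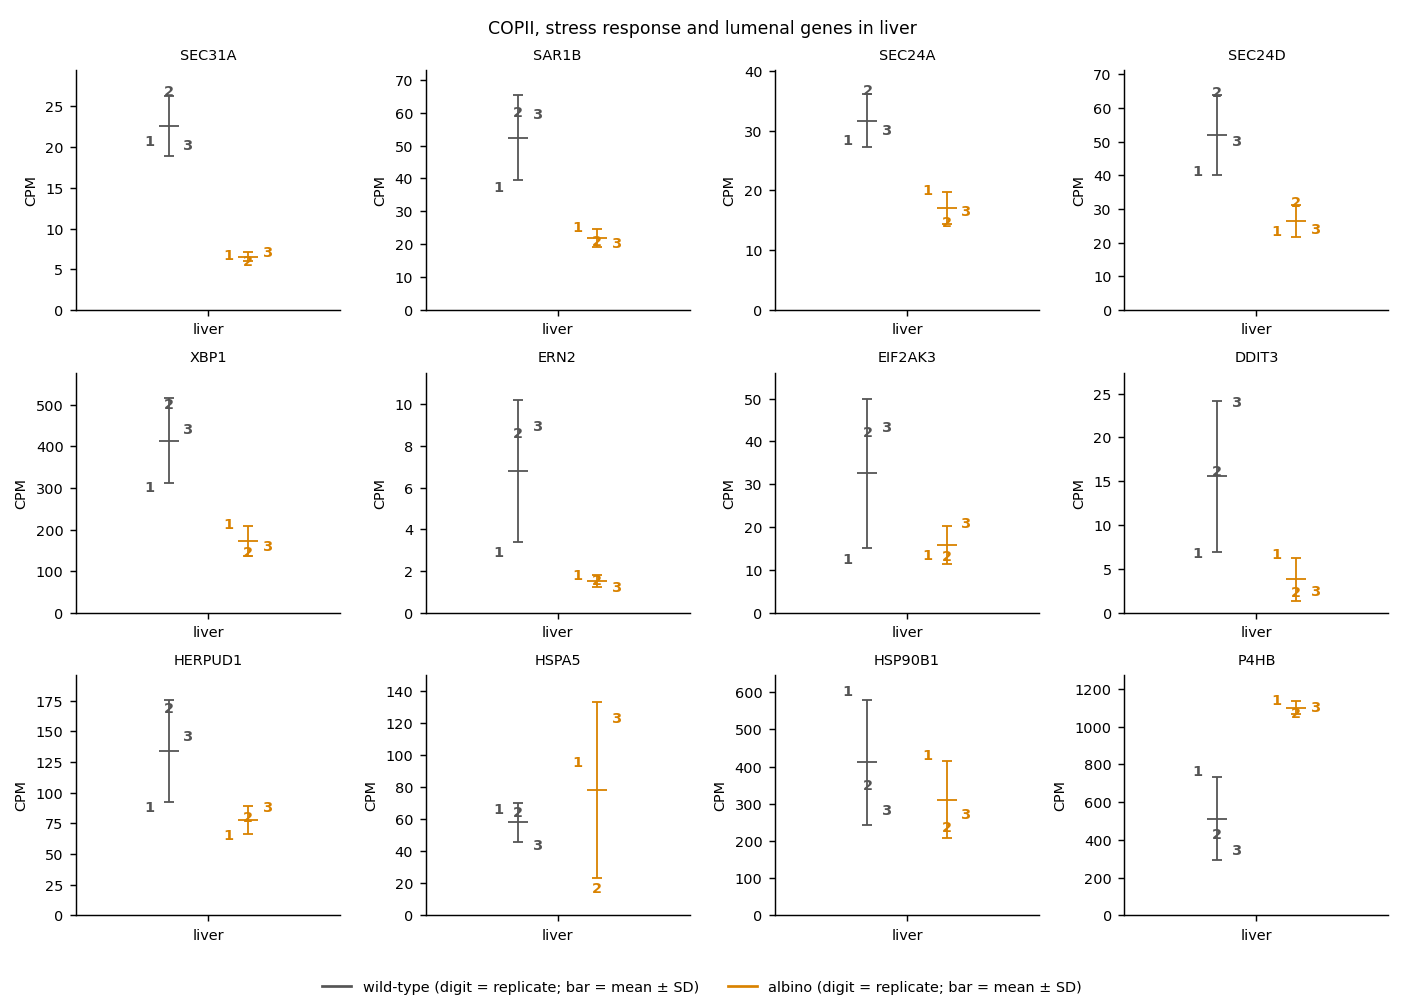
CPM of 12 ER genes in liver (y axis from 0), with each library shown by its replicate number and the mean and SD of the 3 libraries as bars, wild-type in grey and albino in orange. SEC31A separates the genotypes with 20.2 to 26.8 against 5.93 to 7.07 CPM, XBP1, ERN2, EIF2AK3, DDIT3 and HERPUD1 have wild-type 2 and 3 on top, and HSPA5 spreads most within albino.

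In eyes, genes of several roles were called in both directions: 4 of the 10 oligosaccharyltransferase genes were higher in albino frogs, and SEC31A and RRBP1 were among those lower. Of 164 ER genes tested, 19 were called, 13 higher and 6 lower, or 11.6%. Of all 17817 genes tested, 11.2% were called, 909 higher and 1086 lower. The balance of directions among the ER genes did not hold throughout. Without wild-type 1, 22 were called, 9 higher and 13 lower, and it was 3 and 3 without wild-type 2 and 1 and 1 without albino 2. More were higher without wild-type 3 (4 and 2), albino 1 (4 and 2) or albino 3 (7 and 4). DESeq2 gave 16 higher and 14 lower. The medians were 0.06 and 0.01, and the genotypes did not overlap in 59 of the 164 (35.98%), against 36.6% of all genes tested. Scaled by library totals, the median of all genes moved by 0.27. With that scaling 27 ER genes were called, 24 higher and 3 lower, and 2913 of all genes.

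Of the 10 genes of the oligosaccharyltransferase, 4 rose, 0 fell and 6 were not called, with a median of 0.23. KRTCAP2 had the smallest p of the pathway in eyes. KRTCAP2 had 59.98, 45.00 and 53.8 CPM in wild-type eyes and 134, 120.1 and 121 CPM in albino eyes, in the order of the replicates. All albino libraries lay far above all wild-type ones, and each group was tight, with a log2 difference of 1.24 (SE 0.13, adjusted p = 0.00255). OSTC, which joins the translocon-bound complex, had 42.03, 38.5 and 39.7 CPM in wild-type and 61.2, 53.6 and 52.04 CPM in albino (log2 difference 0.47, SE 0.11, adjusted p = 0.0338); the catalytic subunit of that complex, STT3A, had 87.3, 84.7 and 97.7 CPM in wild-type and 112, 120.2 and 132 CPM in albino (log2 difference 0.43, SE 0.11, adjusted p = 0.0458), and MAGT1, an oxidoreductase of the complex that holds STT3B, 83.1, 77.2 and 69.2 CPM in wild-type and 102, 105 and 101 CPM in albino (log2 difference 0.42, SE 0.10, adjusted p = 0.0402). In each of the 3 the highest wild-type library lay below the lowest albino one. In the translocon list 2 of 13 genes rose and 1 fell. SEC61B, the small beta subunit of the channel, rose with 37.96, 39.6 and 40.3 CPM in wild-type and 70.8, 51.95 and 56.2 CPM in albino (log2 difference 0.60, SE 0.13, adjusted p = 0.0311), and so did LOC141132043, a second gene annotated as Sec61 beta, with 9.26, 7.74 and 8.84 CPM in wild-type and 15.97, 12.5 and 13.8 CPM in albino (log2 difference 0.71, SE 0.16, adjusted p = 0.0325). How reads that match both of these genes were counted is not stated in the labels, so their values are uncertain. RRBP1 fell, with 13.1, 18.00 and 20.7 CPM in wild-type and 6.37, 6.50 and 8.43 CPM in albino (log2 difference -1.28, SE 0.21, adjusted p = 0.0139) and no overlap.

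SEC31A was the COPII gene called in eyes. In wild-type eyes it stood at 44.8, 43.6 and 41.1 CPM, and in albino eyes at 24.01, 26.5 and 24.1 CPM. Both groups were tight and apart, with a log2 difference of -0.80 (SE 0.11, adjusted p = 0.00673). Among the sensors EIF2AK3 rose, with 49.7, 51.8 and 54.97 CPM in wild-type and 66.4, 81.5 and 75.96 CPM in albino (log2 difference 0.52, SE 0.11, adjusted p = 0.0284), and ERN2 fell, with 7.28, 12.6 and 12.00 CPM in wild-type and 4.71, 4.05 and 5.53 CPM in albino (log2 difference -1.15, SE 0.25, adjusted p = 0.0292), each without overlap. The genes of the output factors XBP1, DDIT3 and ATF4 did not pass, and gene counts do not measure XBP1 splicing or protein. XBP1 had 163, 148 and 155 CPM in wild-type and 124, 122 and 146 CPM in albino (log2 difference -0.25, SE 0.11, adjusted p = 0.178). DDIT3 had 18.8, 16.9 and 14.4 CPM in wild-type and 26.6, 17.3 and 17.9 CPM in albino (log2 difference 0.30, SE 0.20, adjusted p = 0.356). ATF4 had a log2 difference of 0.14 (SE 0.15, adjusted p = 0.553), and DDIT3 and ATF4 overlapped between genotypes. HSPA5 (log2 difference -0.25, SE 0.15, adjusted p = 0.299), ATF6 (log2 difference -0.01, SE 0.13, adjusted p = 0.971), ERN1 (log2 difference 0.05, SE 0.14, adjusted p = 0.833) and HERPUD1 (log2 difference 0.02, SE 0.12, adjusted p = 0.936) overlapped between genotypes, and HSP90B1, at a log2 difference of -0.55 (SE 0.15, adjusted p = 0.0572), did not overlap and was not called.

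Folding and degradation genes moved in both directions in eyes. PDIA4, a disulfide isomerase of the lumen, fell with 15.4, 16.9 and 25.9 CPM in wild-type and 11.03, 9.73 and 9.82 CPM in albino (log2 difference -0.93, SE 0.21, adjusted p = 0.0337), wild-type 3 standing highest. HSPA8, the most abundant chaperone of the pathway there, fell with 1873, 2436 and 1967 CPM in wild-type and 1441, 1351 and 1314 CPM in albino (log2 difference -0.61, SE 0.16, adjusted p = 0.048), and LOC141117345 rose with 84.1, 68.1 and 61.8 CPM in wild-type and 130.2, 115 and 109 CPM in albino (log2 difference 0.73, SE 0.14, adjusted p = 0.0203). EDEM2 rose with 10.5, 9.18 and 9.46 CPM in wild-type and 16.96, 17.9 and 18.6 CPM in albino (log2 difference 0.87, SE 0.14, adjusted p = 0.0112). UBXN8, which brings VCP to the ER membrane, rose with 5.65, 8.46 and 8.66 CPM in wild-type and 18.3, 14.4 and 13.96 CPM in albino (log2 difference 1.04, SE 0.21, adjusted p = 0.0242), the ubiquitin shuttle UBQLN1 with 62.4, 70.1 and 60.1 CPM in wild-type and 89.1, 88.5 and 82.6 CPM in albino (log2 difference 0.43, SE 0.10, adjusted p = 0.0347), and PLAA, a ubiquitin-binding cofactor of VCP, fell with 33.5, 37.6 and 33.04 CPM in wild-type and 24.1, 23.6 and 23.9 CPM in albino (log2 difference -0.54, SE 0.11, adjusted p = 0.0244). No groups overlapped among these.

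The F-box genes of the list, which encode the part of a ubiquitin ligase that binds sugar chains, held widely differing values in eyes. LOC141148348, FBXO6-like, had 9.18, 12.9 and 5.08 CPM in wild-type and 30.4, 40.7 and 39.8 CPM in albino (log2 difference 2.03, SE 0.32, adjusted p = 0.0138), and LOC141148349, FBXO6-like as well, 0.652, 0.612 and 0.207 CPM in wild-type and 3.30, 3.93 and 1.49 CPM in albino (log2 difference 2.56, SE 0.55, adjusted p = 0.028); both rose. LOC141148352, also FBXO6-like, had 0 counts in each skin and liver library. The wild-type eyes libraries held 441, 667 and 457 CPM of LOC141148352, and the albino ones 0.104, 0 and 15.8 CPM. The groups did not overlap, albino 3, the albino eye library with the most crystallin counts, stood above albino 1 and 2, and the difference was not called (log2 difference -6.62, SE 2.31, adjusted p = 0.146). With lens markers as a covariate, an alternative added after the data were seen, it was the only member called (log2 difference -3.74, adjusted p = 0.0217), and the 19 calls of the fit without it ended. Over all genes the calls fell from 1995 to 84. The covariate follows genotype except in albino 3, so any separation of lens content from genotype in this fit rests on that library. Neither the kept call nor the ended ones can therefore be assigned to lens content or to genotype. The 3 genes are not neighbours of each other in the RefSeq order of assembly ASM4218655v1, and how reads shared between them were counted is not stated in the labels.

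Without crystallin genes in the counts, 18 members were called in eyes, 12 higher and 6 lower, and 1959 of all genes. Scaled by library totals, SEC31A (-0.53, adjusted p = 0.0565), HSPA8 (-0.33, adjusted p = 0.269), PDIA4 (-0.66, adjusted p = 0.0733) and PLAA (-0.26, adjusted p = 0.262) kept their direction and lost their call. Skeletal muscle markers (12 of 16) summed to 1884 to 5605 CPM in wild-type and 6403 to 13010 CPM in albino eyes. The count of calls was 6 without any 1 of wild-type 2 and 3 and albino 1, 11 without albino 3, 22 without wild-type 1 and 2 without albino 2, these being KRTCAP2 and SEC31A, whose calls alone held without each library. Over all genes, 1995 were called with all libraries, and 1634, 623 and 825 without wild-type 1, 2 and 3. Without albino 1, 2 and 3 they were 618, 458 and 1324. The fit without 1 library, with 2 libraries left in a group, tests fewer samples. EDEM2 and LOC141148348 lost theirs only without albino 2 (adjusted p = 0.0503 and 0.0552), RRBP1 without albino 1 or 2 (up to 0.0589), and OSTC and SEC61B without each of the 6 (up to 0.1).

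**Figure D3:**
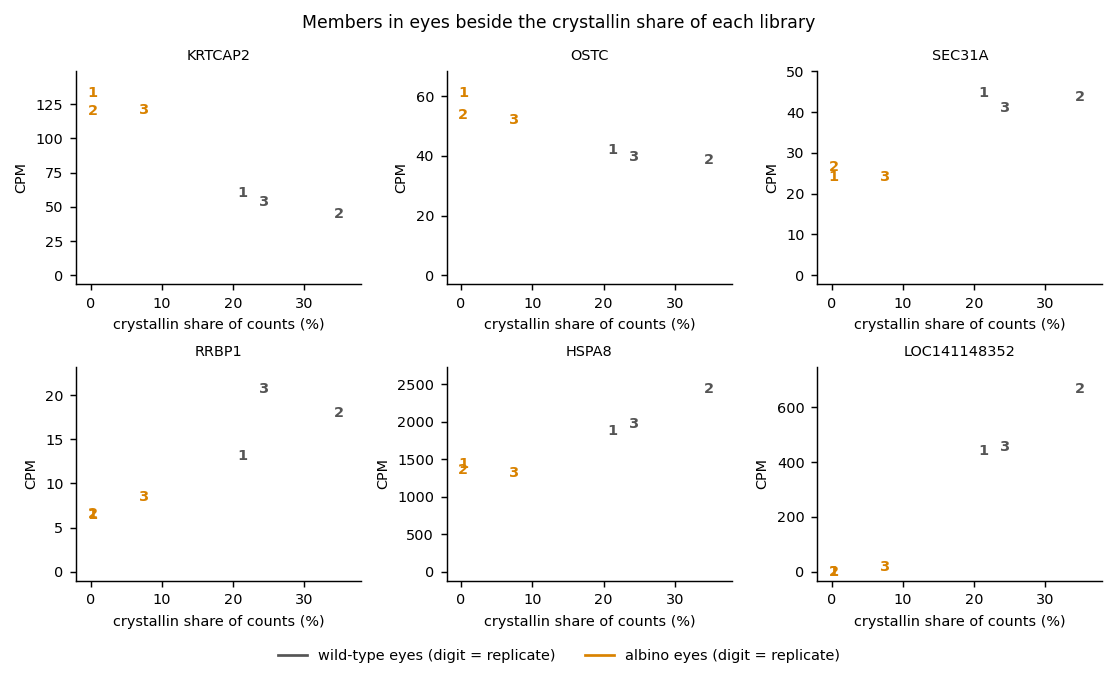
CPM of 6 ER genes in eyes (y axis) against the share of counts in crystallin genes (x axis, percent), 1 digit per library giving its replicate number, wild-type in grey and albino in orange. KRTCAP2 and OSTC are higher and SEC31A, RRBP1, HSPA8 and LOC141148352 lower in the albino libraries, which hold 0.267 to 7.46% crystallin counts against 21.2 to 34.8% in wild-type.

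Across tissues, 4 genes were called in both liver and eyes and 0 in all 3 tissues, since none was called in skin: SEC31A and ERN2 were lower in both, and EDEM2 and LOC141117345 higher in both. Another 21 were called in 1 tissue and 150 in none. Of all genes tested, 0.0946% were called in skin, 5.76% in liver and 11.2% in eyes. The share of all genes called in both liver and eyes is not given here, so the 4 cannot be set against it. Of the 146 genes tested in every tissue, 6 had genotypes that did not overlap in any tissue and 1 direction throughout, where 2.9% of the 13578 genes tested in every tissue did. These were SEC31A, SEC24A, PLAA and MBTPS1 (lower) and EDEM2 and LOC141117345 (higher). MBTPS1, the protease that cuts ATF6 in the Golgi, was called nowhere, with a log2 difference of -0.24 (SE 0.19, adjusted p = 0.652) in skin, a log2 difference of -0.40 (SE 0.14, adjusted p = 0.142) in liver and a log2 difference of -0.18 (SE 0.10, adjusted p = 0.249) in eyes. SEC24A had a log2 difference of -0.57 (SE 0.22, adjusted p = 0.341) in skin and a log2 difference of -0.35 (SE 0.11, adjusted p = 0.0825) in eyes, and PLAA a log2 difference of -0.53 (SE 0.21, adjusted p = 0.364) in skin and a log2 difference of -0.40 (SE 0.16, adjusted p = 0.182) in liver. ERN2 did not overlap in any tissue either, but in skin it was higher in albino, with 8.02, 8.63 and 6.96 CPM in wild-type and 10.6, 12.4 and 11.7 CPM in albino (log2 difference 0.56, SE 0.21, adjusted p = 0.336), not called.

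**Figure D4:**
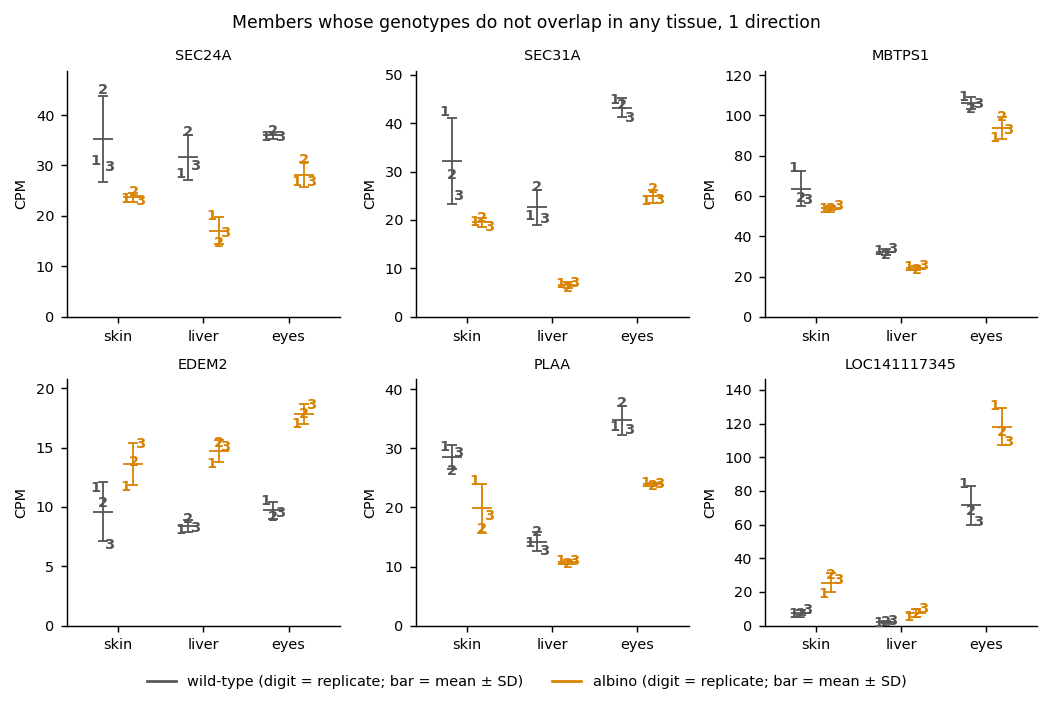
CPM (y axis from 0) of the 6 ER genes whose genotypes do not overlap in skin, liver or eyes and that differ in 1 direction throughout, with each library shown by its replicate number and mean and SD as bars. SEC24A, SEC31A, MBTPS1 and PLAA are lower in albino (orange), and EDEM2 and LOC141117345 are higher.

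**Figure D5:**
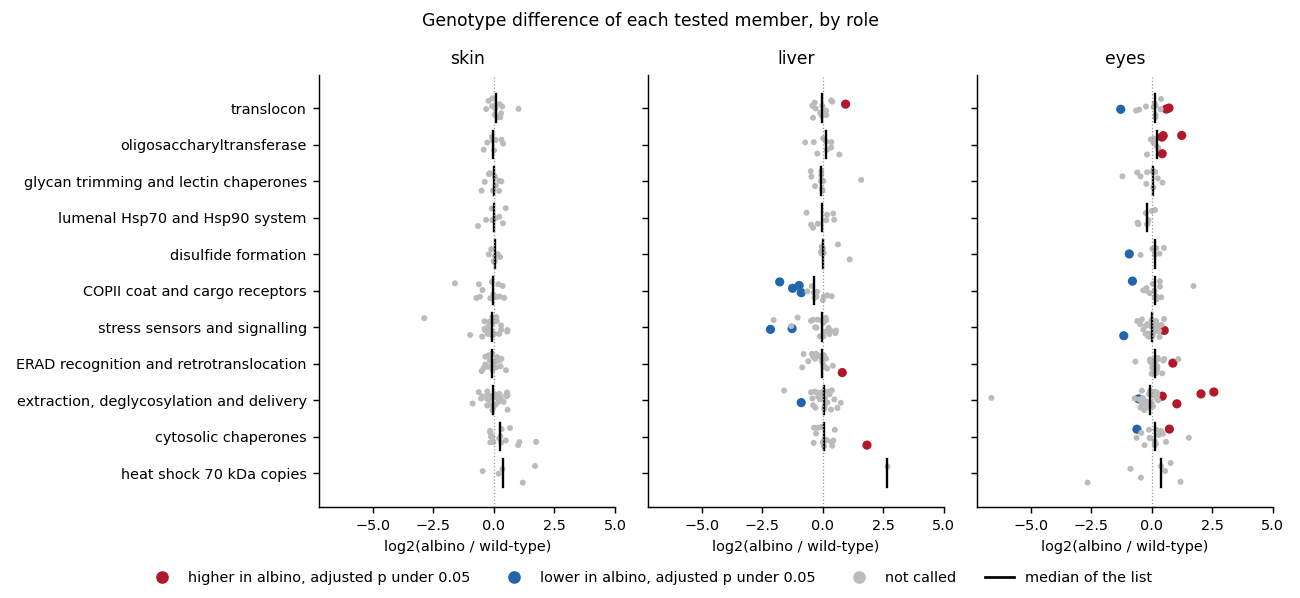
Log2 difference of albino against wild-type (x axis) for each tested ER gene, by role list (rows) and tissue (panels), with called genes in red (higher) or blue (lower) and a black line at the list's median. No point is coloured in skin, 4 of the 7 blue points of liver lie in the COPII list, where the median is -0.36, and 4 of the 13 red points of eyes lie in each of the oligosaccharyltransferase and extraction lists.

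Whether the genotype difference itself differed between tissues was tested as an interaction. Between skin and liver, 0 of 156 ER genes were called by edgeR, where 0.27% of all genes were. An unadjusted p under 0.05 was found for 11 of the 156, and for 1762 of all 18153 genes tested. DESeq2 called 1, ERN2, and 367 of all genes. Between eyes and liver, 8 of 164 were called, 4 in each direction, where 3.42% of all genes were. SAR1B differed by 2.90 on the log2 scale, SE 0.48, adjusted p = 0.00821: it fell in albino liver and was barely expressed in eyes, at 0.0591 to 0.442 CPM. SEC31A, lower in both tissues, was lower by more in liver (0.95 on the log2 scale, SE 0.20, adjusted p = 0.0251). UBE2D1 (0.90 on the log2 scale, SE 0.19, adjusted p = 0.0266) fell in liver and overlapped in eyes, and CKAP4 (-1.62 on the log2 scale, SE 0.34, adjusted p = 0.0262) rose in liver and overlapped in eyes. KRTCAP2 (0.87 on the log2 scale, SE 0.22, adjusted p = 0.0498) rose in eyes and was not called in liver. UGGT2 had a log2 difference of 1.59 (SE 0.41, adjusted p = 0.0592) in liver and a log2 difference of -0.60 (SE 0.20, adjusted p = 0.0882) in eyes, neither called, and the 2 effects differed by -2.21 on the log2 scale, SE 0.41, adjusted p = 0.0146. The calls of SAR1B and UGGT2 held under each of the 18 alternatives run for them. Between eyes and skin, 3 of 169 were called, 1 higher and 2 lower, where 0.991% of all genes were. RRBP1 differed by -2.30 on the log2 scale, SE 0.38, adjusted p = 0.0237, LOC141148348 by 4.28 on the log2 scale, SE 0.74, adjusted p = 0.0255 and ERN2 by -1.71 on the log2 scale, SE 0.32, adjusted p = 0.0345. Skin and eyes of the same number were paired within each genotype, and with the replicate block only RRBP1 was called (adjusted p = 0.0311). The block left 5 calls between eyes and liver, and those of SEC31A, KRTCAP2 and LOC141107891 ended. It joined liver wild-type 3 to eyes wild-type 3, although the on and off states of liver wild-type 3 matched eyes wild-type 2. The kept and ended calls between eyes and liver carry that limit. Without 1 library the count between eyes and liver was 15 without liver wild-type 1 and 11 without liver albino 1. It was at most 4 without any 1 of liver wild-type 2 and 3, eyes wild-type 2 and 3 and eyes albino 1 and 2. For the block and the left-out libraries, matching interaction counts over all genes are not given here. The changes are therefore not shown to be particular to ER genes. The RRBP1 call between eyes and skin ended without any 1 of eyes wild-type 2 and 3 and eyes albino 1 and 2 (adjusted p up to 0.0952). That of LOC141148348 ended without skin wild-type 3, skin albino 2 or 3, eyes wild-type 2, or eyes albino 1 or 2, and that of ERN2 held only without skin wild-type 2, skin albino 1, eyes wild-type 1 or eyes albino 3. The EDEM2 difference between eyes and liver was 0.04 (SE 0.18), not called.

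More ER genes were called between tissues than between genotypes. In wild-type, skin against liver gave 66 called of 149 ER genes, 20 higher and 46 lower in skin. Of all genes, 44.4% were called there, 4282 higher and 3237 lower. Eyes against liver gave 117 of 161 ER genes, 41 higher and 76 lower in eyes, and 68.9% of all genes, 6958 higher and 5484 lower. With liver wild-type 2 and 3 summed, skin against liver gave 53 of 153, 16 higher and 37 lower. Eyes against liver then gave 115 of 164, 39 higher and 76 lower. Calls over all genes were 6180 and 11826 in these summed fits, against 7519 and 12442 unsummed. Eyes against skin gave 91 of 164 ER genes, 36 higher and 55 lower in eyes, and 55.8% of all genes, 5352 higher and 4878 lower. In albino the same comparisons gave 72 of 152 (23 higher, 49 lower; 45.5% of all genes), 115 of 160 (44 higher, 71 lower; 68.3%) and 85 of 162 (37 higher, 48 lower; 59.3%). Over all genes the albino splits were 4064 higher and 3636 lower, 6841 and 5442, and 5515 and 5349. Directions depend on the scaling. With library totals in place of TMM the median of all genes moved by 0.92, 1.02 and 0.10 in wild-type and by 1.23, 1.58 and 0.38 in albino. The ER splits became 63 higher and 15 lower, 80 and 34, and 29 and 44 in wild-type. In albino they became 87 and 9, 105 and 20, and 51 and 31. Calls over all genes were then 10570, 13976 and 9222 in wild-type and 12598, 15113 and 10518 in albino.

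Relative to TMM, all 13 translocon genes were lower in wild-type eyes than in liver (median log2 difference -2.17), and so were all 7 genes of disulfide formation (median -2.94) and 8 of 10 of the oligosaccharyltransferase (median -1.46), while 10 of 17 cytosolic chaperones were higher (median 0.87). The albino libraries gave 13 of 13 (median -1.88), 7 of 7 (-3.08), 8 of 10 (-1.36) and again 10 of 17 higher (1.00). STT3A went from 821 ± 101 CPM (SD, n = 3) in liver to 57.4 ± 4.65 CPM in eyes (log2 difference -3.84, SE 0.20, adjusted p = 2.64e-06). RRBP1 had 11.03 ± 2.50 CPM in eyes and 259.9 ± 32.5 CPM in liver (log2 difference -4.56, SE 0.24), and SEC24D 7.56 ± 1.43 CPM in eyes and 81.6 ± 17.9 CPM in liver (log2 difference -3.43, SE 0.23). SAR1B was highest in liver of the 3 tissues: it had 0.0683 ± 0.0459 CPM in eyes and 82.1 ± 19.2 CPM in liver (log2 difference -10.12, SE 0.41), and skin stood at 2.01 ± 0.919 CPM in the comparison with liver. BAG2, a co-chaperone of Hsp70, was lower in both, with log2 differences of -4.41 in skin and -3.58 in eyes. ERP29, a lumenal chaperone of the disulfide isomerase fold, had -3.06 and the mannosidase MAN1A1 -2.96 in skin against liver.

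Higher in eyes than in liver were DNAJB2, a J-domain protein abundant in neurons of mammals, with 76.7 ± 14.5 CPM in eyes and 4.39 ± 0.866 CPM in liver (log2 difference 4.12, SE 0.23), LOC141117345, with 45.5 ± 7.22 CPM in eyes and 3.27 ± 0.768 CPM in liver (log2 difference 3.79, SE 0.23), and HSPB6, a small heat shock protein of muscle, with 23.9 ± 13.7 CPM in eyes and 0.135 ± 0.120 CPM in liver (log2 difference 7.43, SE 0.75). TUSC3, the alternative to MAGT1 in the oligosaccharyltransferase, had 11.4 ± 0.601 CPM in eyes and 0.0251 ± 0.0435 CPM in liver and no count in any skin library. MAPK10, a stress kinase of neurons in mammals, had 11.5 ± 1.28 CPM in eyes and 0.234 ± 0.193 CPM in skin (log2 difference 5.56, SE 0.56). Calpains were higher in skin than in liver: CAPN1 had 333 ± 26.2 CPM in skin and 26.6 ± 4.42 CPM in liver (log2 difference 3.65, SE 0.25), CAPN2 79.4 ± 10.4 CPM in skin and 9.74 ± 4.37 CPM in liver (log2 difference 3.03, SE 0.35) and LOC141107378 18.6 ± 10.2 CPM in skin, with no count in wild-type liver. CAPN1 and CAPN2 were also higher in skin than in eyes, by -2.68 and -2.93 (eyes minus skin), as were the cell death protein BAK1 (-3.25) and CKAP4 (-2.27). LOC141111279, FBXO2-like, was higher in skin than in liver by 2.46.

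Most of these tissue calls were shared by the genotypes. The matching shares over all genes are not given here, so the sharing is not shown to be particular to ER genes. Of the genes higher in skin than in liver, 18 were called in both genotypes, 90.0% of the 20 in wild-type and 78.3% of the 23 in albino; of those lower, 38 were, 82.6% and 77.6%. Between eyes and liver 32 (78.0% and 72.7%) and 66 (86.8% and 93.0%) were shared, and between eyes and skin 29 (80.6% and 78.4%) and 37 (67.3% and 77.1%). DDIT3 alone was called in opposite directions: eyes stood at 10.7 ± 1.36 against 24.4 ± 13.2 CPM in wild-type liver, and at 13.1 ± 3.25 against 5.99 ± 3.88 CPM in albino liver (SD, n = 3). The eye values were close to each other, the liver values of wild-type spread widely, and the interaction between eyes and liver did not pass for DDIT3 (2.29, SE 0.65, adjusted p = 0.0839).

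The 17 Hsp70 genes known only by locus number lie in 3 runs of adjacent genes, of 2, 9 and 6 members, in the RefSeq order. Similar copies may split or share reads, so single values are uncertain. Summed, they had 26, 356 and 41 counts in wild-type skin, 69, 189 and 190 in albino skin, 15, 28 and 12 in wild-type liver, 73, 62 and 110 in albino liver, 311, 544 and 385 in wild-type eyes and 371, 443 and 416 in albino eyes. Albino liver lay above wild-type liver in every library, and the groups overlapped in skin and eyes. In albino liver most counts came from the run of 6 members, which held 7, 17 and 8 counts in wild-type and 50, 51 and 88 in albino liver. LOC141107893 of that run differed between eyes and liver in its genotype effect (-3.58 on the log2 scale, SE 0.73, adjusted p = 0.0241), with a log2 difference of 2.65 (SE 0.72, adjusted p = 0.07) in liver and a log2 difference of -0.88 (SE 0.32, adjusted p = 0.116) in eyes, and LOC141107891 did so as well (-7.27 on the log2 scale, SE 1.43, adjusted p = 0.0263), from 0 counts in each wild-type liver library. The LOC141107893 call ended without any 1 of liver wild-type 3, eyes wild-type 2 and 3 and eyes albino 1 and 2. The fitted size of LOC141107891 depends on the prior count and gives no bound.

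Beside the pathway entry, 32 genes known as targets of the unfolded protein response or as parts of secretion were listed, of which 30 were found outside the members. Of these, 0 of 29 tested were called in skin, 1 of 29 in liver (higher) and 7 of 30 in eyes, 5 higher and 2 lower, with medians of -0.17, -0.0044 and 0.12. Of all genes tested, 0.0946% were called in skin, 5.76% in liver and 11.2% in eyes. In liver CREB3L1, a membrane-bound transcription factor of secretory cells, rose from 1.58 to 5.09 CPM (adjusted p = 0.0152). In eyes the signal peptidase subunit SPCS1 (41.1 against 60.0 CPM in wild-type and albino), the receptors KDELR1 (55.8 against 88.1) and KDELR2 (53.5 against 74.2), which return lumenal proteins to the ER, the signal recognition particle receptor subunit SRPRB (36.6 against 58.8) and the prolyl isomerase FKBP2 (57.6 against 78.9) rose. The ATF4 targets ASNS, asparagine synthetase (55.3 against 8.44 CPM), and ATF3 (13.0 against 4.48 CPM) fell there. In liver ATF3 had 28.3 in wild-type and 10.1 CPM in albino, and CHAC1, another ATF4 target, 43.4 and 4.66 CPM, neither called. These 2 were picked after their values were seen, and their single libraries are not given here. The median over the 29 genes tested in liver was -0.0044.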

How the data were processed

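Counts per gene for 18 libraries were deposited by the authors as whole reads with no normalization. The FPKM values were deposited by the authors, per kilobase of 1 gene length and per 1e6 counted reads of the library. HISAT2 and HTSeq are named, with no version, per the submitters' processing notes. Members, role lists, marker lists and the naming rule were chosen with earlier results of these data known. Counts were tested in R 4.3.3 with edgeR 4.0.16: filterByExpr, TMM scaling on totals over all genes, and the robust quasi-likelihood test, with Benjamini-Hochberg adjustment over all genes tested and a threshold of 0.05. Each comparison used its own groups, and interactions the 4 groups of 2 tissues. The SE is the log2 difference divided by the square root of F. CPM of genes are TMM-scaled within the tissue or, between tissues, within the comparison, and CPM of marker lists use library totals. DESeq2 1.42.0, limma 3.58.1 on log2(FPKM + 1) or log2(FPKM + 0.1), other scalings, filters, blocks and left-out libraries were alternatives. Tables were made with Python 3.11.15 and pandas 2.3.3. The main edgeR fit of each comparison was tested on simulated data with independent libraries, and the alternatives were not.

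Named were 9 core genes of the response, up to 10 called members of smallest p per direction and tissue (where under 3 were called, the 5 of smallest p), the 5 largest tissue differences each way from 10 CPM, up to 3 called per interaction, the 8 highest by FPKM and, in liver, up to 3 more per role. MAGT1, STT3A, UBQLN1, SEC13, MBTPS1, HSP90AA1 and genes outside the entry were added after their values were seen. RefSeq names of assembly ASM4218655v1 matched all 24636 identifiers. Same-numbered libraries of the genotypes were not paired (r of their deviations -0.154 to 0.0569). Eyes and skin of 1 number were paired in both genotypes, and liver with either in albino, every r above 0.1.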

Additional observations from a re-analysis of the deposited data

Results flagged for a closer look

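In 11 cases the albino against wild-type difference differed between tissues by the interaction test (edgeR, adjusted p under 0.05), given here on the log2 scale as the first tissue minus the second. Between eyes and liver these were SAR1B (2.90), SEC31A (0.95), UBE2D1 (0.90), KRTCAP2 (0.87), UGGT2 (-2.21), CKAP4 (-1.62), LOC141107893 (-3.58) and LOC141107891 (-7.27). Of these, SAR1B rests on few counts in eyes, 11 in wild-type and 43 in albino, and UGGT2 on 58 and 145 counts in liver. The 2 Hsp70 genes known by locus number rest on 10 and 54 counts (LOC141107893) and on 0 and 23 (LOC141107891) in liver, so the second value depends on the prior count and is no bound. Between eyes and skin they were RRBP1 (-2.30), LOC141148348 (4.28) and ERN2 (-1.71). LOC141148348 had 20 and 4 counts in wild-type and albino skin. These calls come from the fit without the replicate block. With the block, those of SEC31A, KRTCAP2 and LOC141107891 between eyes and liver ended. So did those of LOC141148348 and ERN2 between eyes and skin. For liver wild-type 3 the block follows the label, although this library carries the on and off states of number 2. The interactions were not fitted with lens content, which differs between the genotypes in eyes. In the eye comparison alone, the lens covariate ended the calls of SEC31A, KRTCAP2, RRBP1, LOC141148348 and ERN2. That covariate follows genotype except in eyes albino 3, so the ended calls cannot be assigned to lens content or to genotype. UBE2D1 and CKAP4 overlapped between genotypes in eyes and were called in liver.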

How the results depend on the processing

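Counts of ER genes called moved by more than 1.5 times under these settings. In skin (0 called) the count was 1 with no count filter, 2 with DESeq2, 5 in the fit of all 18 libraries and 1 with limma on log2(FPKM + 1) or log2(FPKM + 0.1). In liver (10) it was 21 with DESeq2 and 1 with wild-type 2 and 3 summed. In eyes (19) it was 30 with DESeq2, 5 in the fit of all 18 libraries, 29 with limma on either FPKM scale and 1 with lens markers as a covariate. Calls over all genes moved too. In skin (16) they were 45 with no count filter, 750 with DESeq2, 680 in the fit of all 18 libraries, and 92 and 123 with limma. In liver (864) they were 1840 with DESeq2 and 147 summed. In eyes (1995) they were 3482 with DESeq2, 764 in the fit of all 18 libraries, 3162 and 3112 with limma, and 84 with the lens covariate. The interaction of skin and liver (0) gave 1 with DESeq2, where 367 of all genes were called, against 49 in the main fit. That of eyes and liver (8) gave 37 with library totals, 23 with DESeq2 and 5 with liver wild-type 2 and 3 summed. Matching counts over all genes for eyes and liver under these settings are not given here. With the replicate block the count was 7 in eyes, where the numbers do not pair the genotypes and 937 of all genes were called. It was 5 for eyes and liver and 1 for eyes and skin, with counts over all genes not given here. The block changed no other count by that much. The median log2 difference in liver became -0.3015 with library totals and -0.2657 and -0.3045 with limma on the 2 FPKM scales; in eyes it became 0.3375, 0.2928 and 0.3377, and 0.09792 in the fit of all 18 libraries and 0.005123 with the lens covariate. FPKM and library totals carry no composition factor.

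Leaving out 1 library at a time, the counts of ER genes called ranged over 0 to 0 (albino against wild-type in skin), 1 to 17 (albino against wild-type in liver), 2 to 22 (albino against wild-type in eyes), 47 to 71 (skin against liver in wild-type), 108 to 125 (eyes against liver in wild-type), 66 to 92 (eyes against skin in wild-type), 54 to 73 (skin against liver in albino), 100 to 112 (eyes against liver in albino), 72 to 91 (eyes against skin in albino), 0 to 1 (difference of the genotype effect between skin and liver), 2 to 15 (difference of the genotype effect between eyes and liver), 0 to 3 (difference of the genotype effect between eyes and skin). For skin, the tissue comparisons and the interactions, matching ranges of calls over all genes are not given here. The median log2 differences ranged over -0.07815 to 0.03862 in skin, -0.09994 to 0.008895 in liver, 0.03334 to 0.09594 in eyes.

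The small member medians changed sign in skin and liver with 1 library left out (the ranges above), and in liver with DESeq2 (0.001783). The split of tissue calls turned with library totals between skin and liver and between eyes and liver, and for eyes against skin in albino. Among single genes followed through the settings, direction changed for core genes of the response that were not called. HSPA5, albino against wild-type in skin, turned with 1 library left out (range -0.3949 to 0.1593). ERN1, albino against wild-type in skin, turned with 1 library left out (range -0.05991 to 0.2122). HSPA5, albino against wild-type in liver, turned to -0.2092 (limma on log2(FPKM + 1)), -0.2532 (limma on log2(FPKM + 0.1)) and with 1 library left out (range -0.04742 to 0.8957). ATF6, albino against wild-type in liver, turned with 1 library left out (range -0.3616 to 0.158). ATF4, albino against wild-type in liver, turned to -0.1396 (library totals), -0.1394 (limma on log2(FPKM + 1)), -0.1413 (limma on log2(FPKM + 0.1)). HSPA5, albino against wild-type in eyes, turned to 0.03803 (library totals), 0.02892 (limma on log2(FPKM + 1)), 0.02941 (limma on log2(FPKM + 0.1)). XBP1, albino against wild-type in eyes, turned to 0.01236 (library totals), 0.02316 (limma on log2(FPKM + 1)), 0.02366 (limma on log2(FPKM + 0.1)). ATF6, albino against wild-type in eyes, turned to 0.2655 (library totals), 0.0002767 (no count filter), 0.03398 (all 18 libraries in 1 fit), 0.2215 (limma on log2(FPKM + 1)), 0.2578 (limma on log2(FPKM + 0.1)) and with 1 library left out (range -0.1019 to 0.05507). ERN1, albino against wild-type in eyes, turned with 1 library left out (range -0.009717 to 0.1469). ATF4, albino against wild-type in eyes, turned to -0.01694 (lens markers as a covariate) and with 1 library left out (range -0.02503 to 0.2263). HERPUD1, albino against wild-type in eyes, turned to -0.01004 (lens markers as a covariate) and with 1 library left out (range -0.07488 to 0.09971). The cause of these changes was not tested. The Hsp70 genes known by locus number rest on few counts.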
